A study of Homo sapiens with 8 samples.

Results

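The chaperone genes described here are those whose name in the H3K9ac peak lists began with HSPA, HSPB, HSPD, HSPE, HSPH, HSP90, a DNAJA, DNAJB or DNAJC number, or a CCT number. The rule found 69 of the 12186 gene names in those lists. Of these 69, 65 are protein-coding, among 10770 protein-coding names in all, and they are the genes counted below unless the text says otherwise. The other 4 are the pseudogenes CCT6P1, CCT6P3 and HSPA7 and the non-coding DNAJC27-AS1. The coding set held 10 HSPA genes, HSPH1, 2 HSP90 genes, 3 HSPB genes, 2 genes for proteins that bind Hsp70 or HSPB1 (HSPBP1 and HSPBAP1), HSPD1, 4 DNAJA, 8 DNAJB and 26 DNAJC genes, and 8 CCT genes. HSPE1, HSP90B1, HSPA1A and HSPA1B were named by no H3K9ac peak used here and are not analysed.

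Acetylated histone H3 was profiled by ChIP-seq in MIA PaCa-2, an established line of pancreatic tumour cells, grown as spheroids in hydrogels made of Glycosil and the PEGDA linker Extralink. Astromal gels had water in place of Gelin-S and were kept in DMEM with 2% FBS. Stromal gels held Gelin-S, the collagen-derived component, and were kept in medium with 2% FBS conditioned by immortalised myofibroblasts from human pancreatic tumours. Gel and medium changed together, so their parts in any difference cannot be told apart, and there was 1 library per mark and condition, so no difference has a replicate check.

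Chaperones bind unfolded protein and keep it from aggregating. Hsp70 proteins (the HSPA family) work in cycles of ATP hydrolysis that J-domain proteins (DNAJA, DNAJB, DNAJC) start and exchange factors such as HSPH1 end, Hsp90 acts on clients handed over from Hsp70, and the ring-shaped chaperonins (HSPD1 in mitochondria, the CCT complex in the cytosol) fold proteins inside a cavity. Many of these genes are housekeeping genes. A subset is induced by heat and other stress through HSF1, which binds repeated GAA units in alternating orientation, and the chaperones of the endoplasmic reticulum (ER) are induced through the ER stress response element.

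The promoters of 60 of the 65 coding members were found in the RefSeq table of GRCh38.p14, which gives 250 bases before and 50 after each start. An element of 3 heat-shock units (GAANNTTC followed by NNGAA, or its reverse complement, on either strand) was present at 7 of the 60 (11.67%), against 0.5365% of the 15843 coding genes in the table. It is printed here because HSF1 binds repeats of this kind. Only exact matches in this window were sought, so a gene without one may still hold a sequence that HSF1 reads. DNAJB1 and HSPB1, for example, held the pair GAANNTTC but no exact 3-unit match. The capitals mark the 3 units, and the 3-unit element contains the shorter pairs given after it. Each stretch is written 5′ to 3′ along the gene's strand.
HSPA8, chr11:123062346-123062374, minus strand: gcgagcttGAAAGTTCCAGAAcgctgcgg
HSPA8, chr11:123062171-123062199, minus strand: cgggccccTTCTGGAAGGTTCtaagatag
HSPA6, chr1:161524458-161524486, plus strand: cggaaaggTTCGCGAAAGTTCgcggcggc
HSP90AA1, chr14:102087112-102087140, minus strand: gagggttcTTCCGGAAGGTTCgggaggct
HSP90AB1, chr6:44247770-44247798, plus strand: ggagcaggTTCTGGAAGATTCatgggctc
HSP90AB1, chr6:44247823-44247851, plus strand: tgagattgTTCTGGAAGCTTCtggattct
HSPD1, chr2:197500060-197500088, minus strand: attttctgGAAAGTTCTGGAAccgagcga
DNAJA1, chr9:33025268-33025296, plus strand: gccgggcgGAACTTTCCAGAAcgctcggt
DNAJB6, chr7:157336865-157336893, plus strand: agagccgaGAACCTTCGCGAAggtggggc

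The elements lay at different distances from the start. In HSPA8, the constitutive cytosolic Hsp70, 2 copies began 230 and 55 bases before the start. In HSP90AB1, the constitutive Hsp90, 2 copies began 165 and 112 bases before 1 of its 3 listed starts. That of HSP90AA1 (the inducible Hsp90) began 88 bases before 1 of its 2 listed starts. Those of HSPA6 (a strictly stress-induced Hsp70) and DNAJB6 (a J-protein that suppresses aggregation) began 74 and 131 bases before the start. The HSPD1 element began 240 bases before 1 of its 2 listed starts and overlapped another copy shifted by 1 unit. DNAJA1, a cytosolic J-protein, was the exception, with its element beginning at base 4 after the start. The pairs alone were more widespread. GAANNTTC was found at 14 of 60 members (23.33%) against 7.385% of all genes, and TTCNNGAA at 14 (23.33%) against 8.837%. None of the CCT promoters in the table held the 3-unit element.

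The ER stress response element (CCAAT, 9 bases, CCACG) was found at 1 member, HSPA5 (1.667% against 0.1326% of all genes). HSPA5 encodes BiP, the main Hsp70 of the ER, and its element began 66 bases before the start.
HSPA5, chr9:125241386-125241414, minus strand: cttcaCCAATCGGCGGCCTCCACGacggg
Of the general promoter motifs, CCAAT stood at 40.0% of members against 42.14% of all genes, GGGCGG at 45 of the 60 against 64.26%, and TATAAA at 13.33% against 12.4%.
The whole 250 bases before the start of HSPA8 and before 1 of the 2 listed starts of HSP90AA1 are given. Both genes hold the element, and their H3K9ac differed between the conditions by the rule used for the ratios. DNAJA1 meets both criteria too, but its element lies after the start. Every GAANNTTC and TTCNNGAA pair is in capitals.
HSPA8, chr11:123062137-123062386, minus strand: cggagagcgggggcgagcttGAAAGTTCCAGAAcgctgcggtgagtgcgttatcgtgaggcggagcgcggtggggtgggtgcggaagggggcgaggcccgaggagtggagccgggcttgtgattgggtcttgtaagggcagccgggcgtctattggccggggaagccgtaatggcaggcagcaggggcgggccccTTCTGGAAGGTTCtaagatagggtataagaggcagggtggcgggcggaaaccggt
HSP90AA1, chr14:102087045-102087294, minus strand: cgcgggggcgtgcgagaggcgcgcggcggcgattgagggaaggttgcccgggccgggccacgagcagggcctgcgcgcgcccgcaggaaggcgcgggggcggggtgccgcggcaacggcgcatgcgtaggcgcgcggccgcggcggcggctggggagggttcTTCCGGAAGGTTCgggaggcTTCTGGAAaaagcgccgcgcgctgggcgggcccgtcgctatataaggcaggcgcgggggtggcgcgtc
These letters are matches in the reference and not sites shown to be bound. The peaks below are in build hg19, and positions in the different builds were not compared.

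Several members share a promoter region with a gene on the other strand. A coding gene started within 1 kb in the opposite direction at 11 of 60 members (18.33%), against 15.83% of 8332 coding genes. The pairs included HSPD1 with HSPE1, its mitochondrial co-chaperonin, HSPA1L with HSPA1A, DNAJA1 with APTX, DNAJB1 with TECR, DNAJB11 with TBCCD1, HSP90AA1 with WDR20 and DNAJC30 with BUD23. At such promoters a peak cannot be given to a single gene from its position, and the H3K9ac lists name the nearest start. HSPA6 with HSPA7 and CCT6A with the CCT6 pseudogenes are near-identical copies, so tags at these genes are uncertain.

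The astromal H3K9ac list held 7141 peaks and the stromal one 20326, from libraries of 3925277 and 7569604 tags, both estimated from the values, and the H3K27ac lists held 14489 and 15093 peaks from 13453902 and 17190695 tags. Peaks took 1.76% of the tags in the astromal and 5.81% in the stromal H3K9ac library, and 2.172% and 1.974% in the H3K27ac libraries. The median peak of the astromal H3K9ac list held 9.0 tags and that of the stromal list 20.0, so a gene without an astromal H3K9ac peak is not a gene measured at 0. Of the tumour cell markers reported here, KRT8, KRT18, KRT19 and VIM had promoter H3K9ac in at least 1 list, and KRT7, EPCAM and CDH1 were named in neither. Of 11 myofibroblast markers, ACTA2, COL1A1 and COL1A2 had promoter H3K9ac in the stromal list only, at 17.2 to 30.4 normalised tags, and COL1A2 also had H3K27ac, at 89.2 and 67.5. H3K9ac in the stromal list only was also the state of 46.7% of all coding genes and of KRT8, KRT19 and VIM. Whether myofibroblast chromatin was in the gels was not tested. Those cells supplied the medium, per the labels.

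Most chaperone genes had H3K9ac at the promoter, meaning a peak centre within 1 kb of the start that the list names. It was in both lists at 40 of 65 members (61.5%), against 44.0% of all coding genes, and in the stromal list only at 22 (33.8%), against 46.7%. No member had it in the astromal list only, against 0.882% of all genes. The remaining 3 (4.62%, against 8.5%) were DNAJC12, DNAJC14 and DNAJC6 (auxilin, which uncoats clathrin vesicles), whose H3K9ac peaks lay farther away. All 8 coding CCT genes were in both lists, as were both HSP90 genes, HSPH1 and 6 of 10 HSPA genes. The J-proteins were split, with both lists at 3 of 4 DNAJA, 4 of 8 DNAJB and 14 of 26 DNAJC genes. Among the genes in the stromal list only, the highest were HSPD1, at 81.9 normalised tags, HSPA1L at 64.7, and DNAJB6 and DNAJC4 at 58.1 each.

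H3K27ac was taken from peaks whose centre lay within 2 kb of any H3K9ac peak naming the gene. It was in both lists at 53 of 65 members (81.5%), against 65.8% of all coding genes. It was in the stromal list only at 3, DNAJB14, DNAJC2 and HSPBP1 (4.62%, against 5.2%), and in the astromal list only at 1, DNAJC4 (1.54%, against 7.43%). Neither list had it at 8 members (12.3%, against 21.5%). These were DNAJA4, DNAJB5, DNAJB11, DNAJC1, DNAJC5, DNAJC6, DNAJC8 and HSPA12A. They include the cysteine string protein of synaptic vesicles (DNAJC5) and auxilin, both best known from neurons, and HSPA12A, a distant Hsp70 relative. They also include DNAJB11, the ER co-chaperone of BiP, whose promoter H3K9ac was 45.9 normalised tags in the astromal and 37.0 in the stromal list. H3K27ac at these genes was not detectable in these lists, which hold only peaks that passed the caller.

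Levels are tags per peak as the authors normalised them, per 10000000 tags of the library, summed over the peaks of a gene. Where promoter H3K9ac was present, its median over members was 33.1 in the astromal list (n = 40 genes) against 25.5 over all coding genes, and 53.5 in the stromal list (n = 62) against 39.6. For H3K27ac the medians were 28.23 (n = 54) against 21.56 in the astromal and 19.18 (n = 56) against 19.24 in the stromal list. The members thus stood above the general median in 3 of the 4 libraries.

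**Figure D1:**
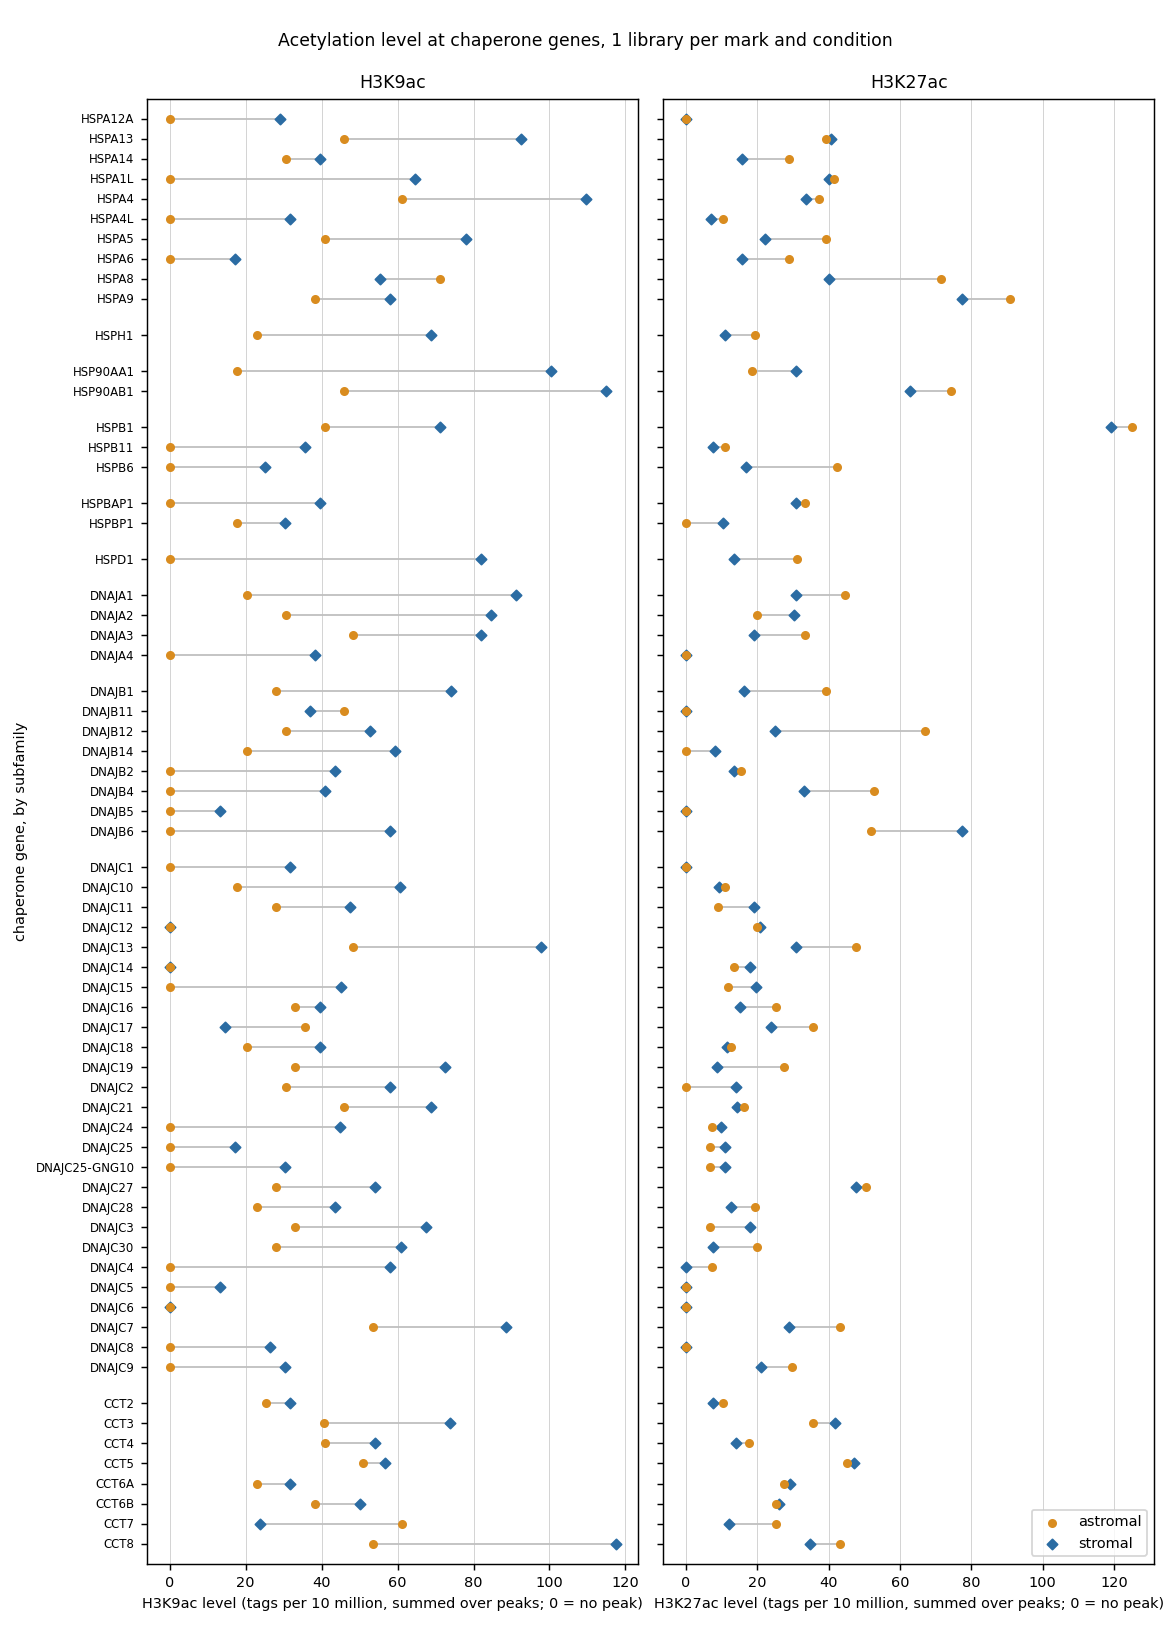
Level of H3K9ac (left) and H3K27ac (right) at the 65 coding chaperone genes, in tags per 10000000 summed over the peaks of a gene. Circles are the astromal and diamonds the stromal library, 1 library each, joined by a line for each gene, and 0 means that the list held no peak. The stromal H3K9ac diamonds lie to the right of the circles at nearly all genes, and HSPB1 stands at the right end of the H3K27ac panel with 125.0 and 119.2.

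Among the Hsp70 genes, H3K9ac ran from 30.6 to 71.3 in the astromal and from 17.2 to 109.6 in the stromal list. HSPA4, an Hsp110-type exchange factor, had the highest stromal value, 109.6 against 61.1 astromal, in 2 peaks in each list. HSPA8 had the highest astromal value, 71.3 against 55.5 stromal. HSPA13 had 45.9 and 92.5, and HSPA5 had 40.8 and 78.0, in the same order. HSPA6 lay at the low end, with no astromal promoter peak and 17.2 in the stromal list, at chr1:161494142-161494352 in the 5′ UTR. The H3K27ac order was another one, led by HSPA9 (mortalin, the mitochondrial Hsp70) at 90.7 and 77.5 over 3 peaks in each list. HSPA8 followed in the astromal list, at 71.4 over 2 peaks, and had 40.1 in 1 stromal peak, beside 40.7 at HSPA13 and 40.1 at HSPA1L.

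Both cytosolic Hsp90 genes had high stromal H3K9ac. HSP90AB1 had 45.8 astromal and 115.0 stromal at the promoter, and HSP90AA1 had 17.8 and 100.5. Their H3K27ac differed more from each other. It was 74.2 and 62.8 at HSP90AB1, 2 of whose 5 astromal peaks and 1 of whose 4 stromal peaks lay far upstream, beside an H3K9ac peak at -8248 bp in the astromal and -8217 bp in the stromal list. It was 18.6 and 30.83 at HSP90AA1.

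HSPB1 (Hsp27, a small heat-shock protein that holds unfolded protein) had the highest H3K27ac of all members in both conditions, 125.0 astromal and 119.2 stromal, over 5 peaks in each list. The stromal value stood at percentile 99.75 of all coding genes with the mark. Most of it was away from the promoter. The promoter peak held 16.4 in the astromal and 18.6 in the stromal list, and the other 4 lay at -11042, -10431, 11727 and 15844 bp from the start in the astromal list, with astromal H3K9ac peaks of 33.1 and 20.4 at -10408 and 15868 bp. In the stromal list H3K9ac there reached 75.3, at 16019 bp. These distal sites were intergenic and were tied to HSPB1 as the nearest start, which does not show that they act on it. HSPB6 and HSPB11 had promoter H3K9ac in the stromal list only, at 25.1 and 35.7.

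**Figure D2:**
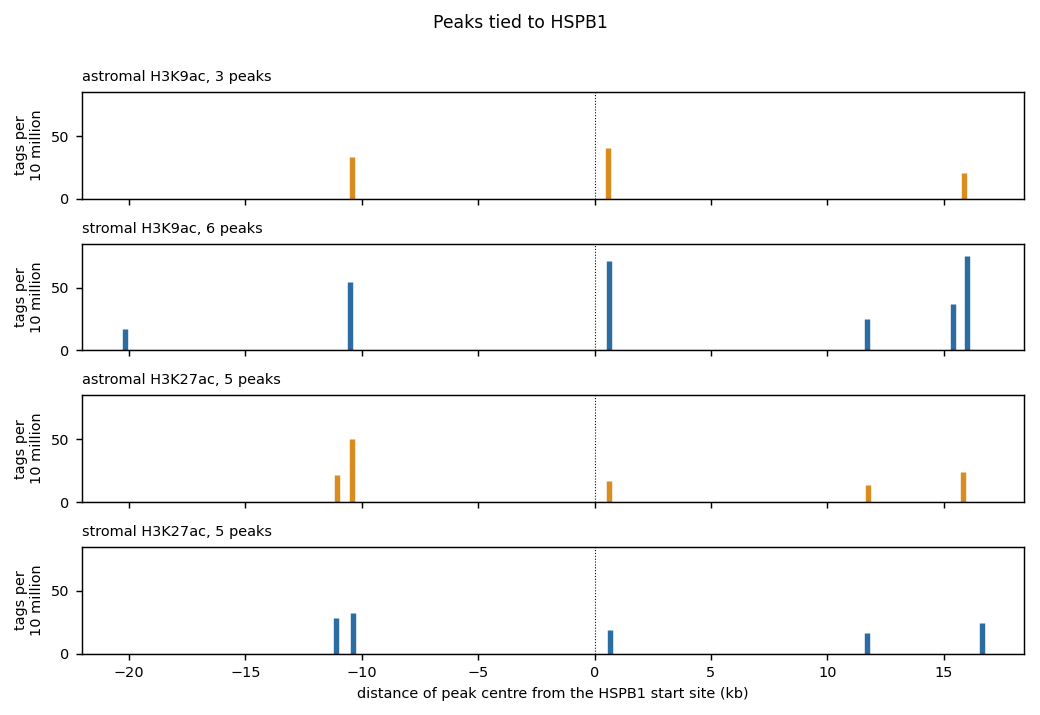
Peaks tied to HSPB1 in the 4 libraries, by distance of the peak centre from its start site (kb) and height in tags per 10000000. The promoter peak of H3K27ac (16.4 astromal, 18.6 stromal) is lower than the peaks at -10431 bp (49.8, astromal) and -10389 bp (32.0, stromal).

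Of the chaperonins, HSPD1 (mitochondrial Hsp60) had 81.9 stromal H3K9ac in peaks at 201 and -448 bp from its named starts and no astromal peak, and its H3K27ac was 31.3 and 13.4. The CCT genes encode the subunits of a single ring complex that folds actin and tubulin. Their astromal H3K9ac ran from 22.9 (CCT6A) to 61.2 (CCT7) and their stromal H3K9ac from 23.8 (CCT7) to 117.5 (CCT8), the highest of all members. CCT7 was thus the highest CCT gene in one condition and the lowest in the other. Their H3K27ac ran from 10.4 to 45.3 and from 7.56 to 47.1, with CCT2 lowest and CCT5 highest in both conditions. TCP1, the CCT subunit whose name the rule does not match, had 55.5 stromal H3K9ac, no astromal promoter peak, and H3K27ac of 34.2 and 19.2.

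Among the J-proteins, stromal H3K9ac was highest at DNAJC13 (an endosomal J-protein), with 48.4 astromal and 97.7 stromal, and at DNAJA1, with 20.4 and 91.2. DNAJC7, a co-chaperone that binds both Hsp70 and Hsp90, had 53.5 and 88.5. The highest H3K27ac among them was that of DNAJB6, 52.0 and 77.3, most of it in peaks from -27653 to -18254 bp, and of DNAJB12 in the astromal list, 66.93 against 25.04. The DNAJC genes, the most varied group, had the lowest H3K27ac medians of the larger families, 16.4 astromal and 15.1 stromal. DNAJC27 shared its 2 H3K27ac peaks in each list (50.5 and 47.7 in all) with DNAJC27-AS1, and DNAJC25 shared its single one with the readthrough gene DNAJC25-GNG10.

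Stromal H3K9ac was above astromal at nearly all genes in both lists, members or not. The median log2 ratio of stromal over astromal was 0.911 over 4735 coding genes, a 1.88-fold difference, and 0.851 over the 40 members, 36 of them above 0. Ratios below are therefore given relative to the median of all coding genes. On that scale the members' median was -0.059, with 19 of 40 above 0. A call, higher or lower in the stromal library, was made for a gene that lay at least 2-fold from the median with an exact 95% interval of its tag ratio that left out 0. The intervals cover counting error only. By that rule 2 of 40 members were called higher in the stromal library (5.0%, against 4.27% of all genes) and 4 lower (10.0%, against 3.1%). Without centring, 14 were called higher (35.0%, against 39.3% of all genes) and 2 lower (5.0%, against 0.19%).

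HSP90AA1 had the largest positive ratio, 1.58 (0.47 to 2.95). Its astromal sum of 17.8 rested on 1 peak of 7 tags in an intron, 759 bp after the start of NM_005348. Its stromal sum of 100.5 came from 4 peaks, of 37.0, 22.5 and 17.2 at that start and of 23.8 at the start of NM_001017963, which the list gives as a separate transcript. At NM_005348 alone the levels were 17.8 and 76.7 and the ratio was 1.19 (0.06 to 2.57). At the highest peak alone it was 0.37 and made no call. The 18.6 of astromal H3K27ac was in 1 peak at the other start, 334 bp upstream of it.

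DNAJA1 was the other member called higher, at 1.25 (0.19 to 2.52). The astromal list had 1 peak of 8 tags (20.4) at chr9:33025337-33025537, in an intron 228 bp after the start. The stromal list had a peak at nearly the same place, chr9:33025355-33025565 (60.8), and another 282 bp upstream (30.4). At the highest peak the ratio was 0.89 and made no call. DNAJA1 H3K27ac did not go with it, at 44.64 astromal and 30.8 stromal and a ratio of -0.37 (no call). It also had stromal H3K9ac peaks 18752 and 19491 bp after the start, annotated as 3′ UTR, with H3K27ac beside them in both conditions.

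CCT7 had the lowest ratio, -2.27 (-3.24 to -1.33). The astromal list had peaks at chr2:73460913-73461113 (35.7, 351 bp upstream) and chr2:73461543-73461743 (25.5, 279 bp downstream), and the stromal list had only the downstream one, at 23.8. Its uncentred level was thus lower in the stromal library, which was the case at 4 of 40 members. At the highest peak the ratio was -1.27 and the call held. H3K27ac of CCT7 was 25.3 astromal and 12.2 stromal, a ratio of -0.88 (no call).

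DNAJC17, a J-protein linked to splicing, had a ratio of -2.21 (-3.49 to -0.96). It had 1 peak in each list, but at different places, 35.7 at 95 bp after the start in the astromal and 14.5 at 384 bp before it in the stromal list. H3K27ac at 193 and 184 bp after the start was 20.1 and 16.3, and an astromal H3K27ac peak of 7.43, 369 bp upstream, had no stromal match.

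HSPA8 and DNAJB11 were also called lower, at -1.27 (-1.997 to -0.529) and -1.22 (-2.13 to -0.28). HSPA8 had astromal peaks of 38.2 and 33.1 at 511 and 904 bp upstream, and a single stromal peak of 55.5 between them, at 644 bp. DNAJB11 had 1 peak in each list, 255 and 176 bp after the start. Without centring on the median both ratios stayed below 0 but made no call, -0.36 and -0.31. At the highest peak HSPA8 had -0.15 and made no call.

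H3K27ac had no such shift between the libraries. The median log2 ratio of stromal over astromal was -0.167 over 7091 coding genes, and relative to it the members' median was -0.093, with 22 of 53 above 0. Of 53 members, 2 were called higher (3.77%, against 5.5% of all genes) and 6 lower (11.3%, against 6.21%). No member was called in both marks, among 36 with a ratio in each. The share of all coding genes called in both marks was not computed, so this count is not read as a trait of the members.

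The members called higher were DNAJC3 and DNAJC11. DNAJC3 (p58IPK, an ER co-chaperone and inhibitor of eIF2α kinases) had 6.69 astromal in 1 peak 821 bp upstream, and 18.03 stromal in peaks 865 and 441 bp upstream, a ratio of 1.60 (0.49 to 2.85). DNAJC11, a J-protein of the mitochondrial membranes, had 8.92 astromal and 19.16 stromal, a ratio of 1.27 (0.28 to 2.36). Their astromal sums rested on 9 and 12 tags.

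The members called lower were DNAJC19, DNAJB12, DNAJC30, HSPB6, DNAJB1 and HSPD1. DNAJC19, a J-protein of the inner mitochondrial membrane, had 27.5 astromal in 2 peaks and 8.73 stromal in 1 peak, a ratio of -1.49 (-2.46 to -0.59). DNAJC30, also mitochondrial, had 20.06 and 7.56 (-1.24). HSPD1 had 31.3 and 13.4 (-1.06), and the astromal peak 678 bp after its start had no stromal match. DNAJB1 (Hsp40, the heat-induced partner of Hsp70) had 39.4 and 16.3 (-1.11), and HSPB6 had 42.3 and 16.9 (-1.16). DNAJB12, an ER membrane J-protein, had 66.93 and 25.04 (-1.25), of which a distal astromal peak 34585 bp after the start gave 32.0. With H3K27ac taken within 1 kb of an H3K9ac peak its ratio was -0.31 and made no call. DNAJC30 and HSPB6 had no ratio when a peak counted for the nearest gene only, which left 4 called lower. The calls of DNAJB1 and HSPD1 were lost when the peak score replaced the tags, at -0.91 and -0.99.

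All 8 members called in H3K27ac had more peaks on their higher side, and so had 95.1% of the 830 coding genes called in that mark. None of the 8 was called at the highest peak alone, where 0.494% of all genes were called higher and 0.874% lower. Of the 6 called in H3K9ac, 4 had more peaks on their higher side (66.7%, against 85.7% of the 349 coding genes called) and the other 2, DNAJC17 and DNAJB11, had 1 peak in each list. At the highest peak 0 members were called higher in H3K9ac and 2 lower (5.0%), against 0.169% and 0.676% of all genes. Among the members not called, the number of peaks was equal in the 2 lists at 25 of 34 for H3K9ac and 29 of 45 for H3K27ac. That share was not computed over all coding genes not called. A sum over peaks depends on whether the caller split a promoter into 1 or more peaks, and the part of this in the calls was not tested.

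**Figure D3:**
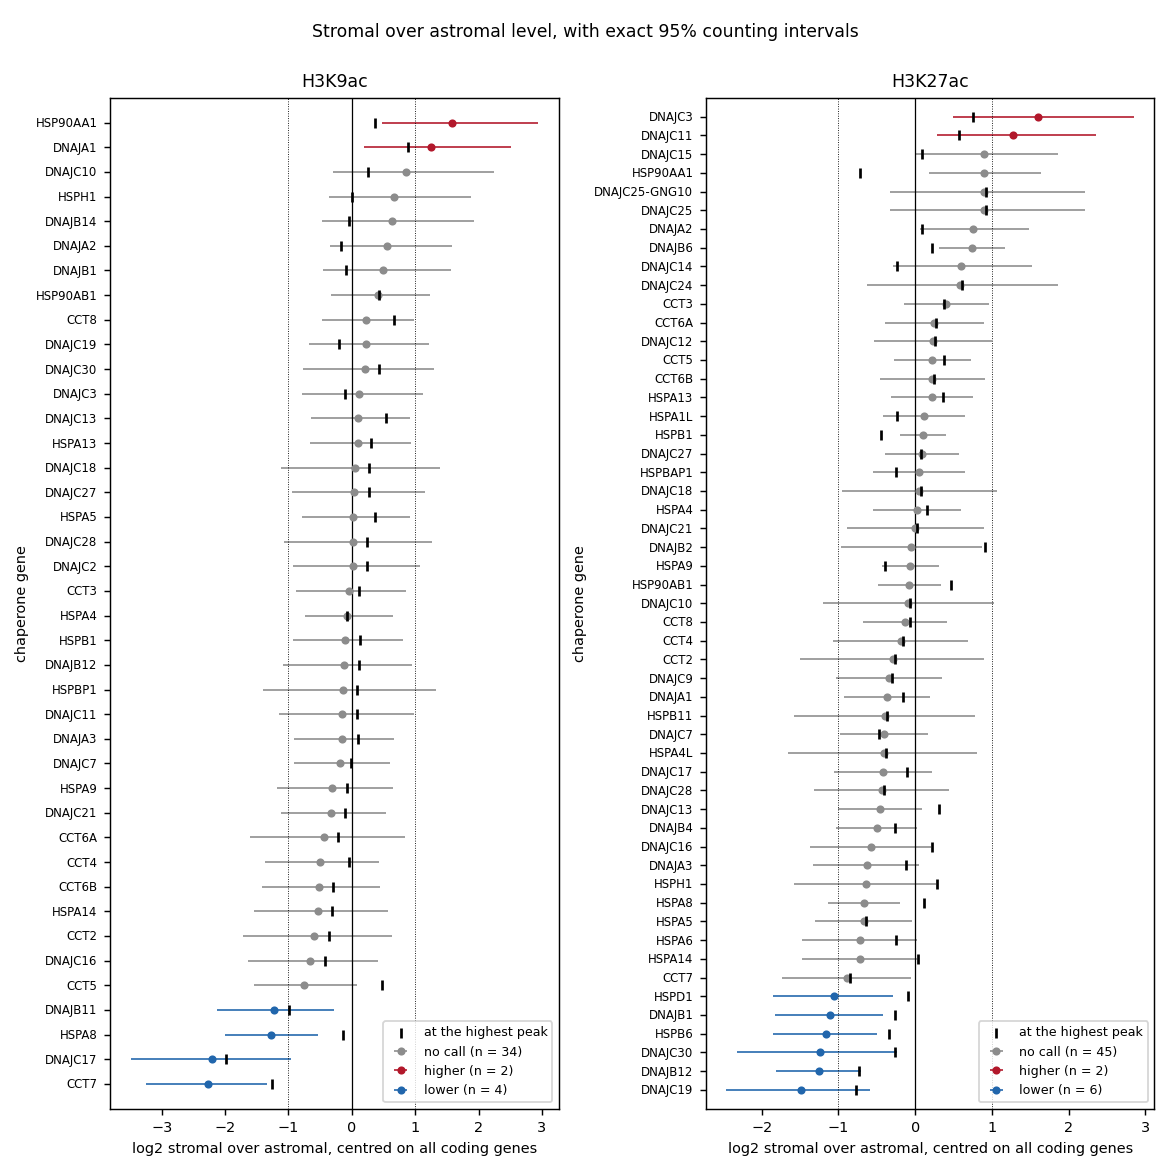
Log2 ratio of stromal over astromal level, relative to the median of all coding genes, for the 40 members with promoter H3K9ac and the 53 with H3K27ac in both lists. Points are sums over peaks with exact 95% counting intervals, black ticks are the ratio at the highest peak, and dotted lines mark 2-fold. HSP90AA1 (1.58) and CCT7 (-2.27) end the H3K9ac panel, and the ticks of all 8 called H3K27ac members lie within 2-fold.

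The names outside the coding set had a similar range. CCT6P1 had 20.4 astromal and 43.6 stromal H3K9ac and DNAJC27-AS1 had 22.9 and 54.2, neither called, and HSPA7 had no promoter peak. CCT6P3 had 42.3 stromal H3K9ac only, and its H3K27ac was called lower, 25.22 over 3 peaks against 7.56 in 1 peak (-1.57).

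By family, the median H3K9ac ratio was lowest for CCT, -0.509 over 8 genes (-2.27 to 0.23), and highest for HSP90, 0.999 over 2 genes (0.42 and 1.58). HSPH1 had 0.67, and the median of 3 DNAJA genes was 0.557. It was -0.187 over 6 HSPA genes, 0.184 over 4 DNAJB and 0.028 over 14 DNAJC genes. The H3K27ac medians had another order, 0.040 for CCT, -0.365 for DNAJA, -0.409 for HSPA, -0.503 for DNAJB and 0.023 for DNAJC. These medians are descriptions of few genes each. The H3K9ac ratio of HSPH1, a single gene, lay above the ranges of HSPA, CCT and DNAJB, and was 0.007 at the highest peak. Between the families given here by a median the ranges overlapped, except for those of HSP90 with HSPA and with CCT in H3K9ac. That exception held for the sums only. At the highest peak HSP90AA1 had 0.37 and HSP90AB1 0.434, beside 0.37 at HSPA5, 0.474 at CCT5 and 0.665 at CCT8.

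The members were also grouped by role from general knowledge. Of the 10 genes in the lists on the heat-shock list, which also holds the constitutive HSPA8, 6 had an H3K9ac ratio, with a median of 0.581 and 4 of 6 above 0. They were HSP90AA1 (1.58), DNAJA1 (1.25), HSPH1 (0.67), DNAJB1 (0.49), HSPB1 (-0.10) and HSPA8 (-1.27). At the highest peak these 6 had, in the same order, 0.37, 0.894, 0.007, -0.089, 0.125 and -0.145. The H3K27ac median of the list was -0.639, with 2 of 9 above 0, HSP90AA1 (0.90) and HSPB1 (0.10). Without HSPA8 the medians were 0.673 (5 genes) and -0.524 (8 genes). The remaining 4 of the 10, HSPA6, HSPD1, HSPA4L and DNAJA4, had promoter H3K9ac in the stromal list only, as had 46.7% of all coding genes. The 8 ER genes had medians of 0.101 in H3K9ac (7 genes) and -0.093 in H3K27ac (5 genes). The 8 mitochondrial genes had medians of -0.065 (6 genes) and -0.531 (8 genes), and 3 of them, DNAJC19, DNAJC30 and HSPD1, were called lower and 1, DNAJC11, higher in H3K27ac, where 6.21% and 5.5% of all genes were. No mitochondrial member was called in H3K9ac. Of the ER genes, DNAJC3 was called higher and DNAJB12 lower in H3K27ac, and DNAJB11 lower in H3K9ac.

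H3K27ac was set against H3K9ac within each condition, relative to the median of all coding genes with both marks there. The marks come from different antibodies and libraries, so only a gene's place among all genes is read. In the astromal libraries 5 of 36 members lay more than 2-fold above the median (13.9%, against 10.9% of all genes) and 6 more than 2-fold below (16.7%, against 11.5%). In the stromal libraries 8 of 54 lay above (14.8%, against 15.3%) and 6 below (11.1%, against 13.2%). The regions were unlike, since H3K9ac was summed over the promoter and H3K27ac also over distal sites. With H3K27ac taken only near promoter H3K9ac peaks, an alternative chosen after seeing the data, 2 lay above (8.87% of all genes did) and 7 below (11.6%) in the astromal libraries, and 6 (13.5%) and 7 (12.7%) in the stromal ones. HSPA9, whose H3K27ac was all within 1 kb of its start, was above in both conditions, at 1.40 and 1.69, and at 1.44 and 1.76 in that alternative. Its ratios set 3 H3K27ac peaks against 1 H3K9ac peak in each condition. The highest of these H3K27ac peaks held 44.6 astromal and 29.7 stromal, beside H3K9ac of 38.2 and 58.1. DNAJC27 was above too, at 1.00 and 1.09, and at 1.04 and 1.16 in the alternative. Its H3K27ac peaks were shared with DNAJC27-AS1, however. The H3K9ac peak naming DNAJC27-AS1 (22.9 astromal, 54.2 stromal) was not counted for DNAJC27, in the alternative either, so these ratios set unlike regions against each other. HSPB1 had the highest sums, 1.77 and 2.01, but its H3K27ac was mostly distal, and near the promoter it had -1.12 and -0.59.

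No member was more than 2-fold below in both conditions. The shares of all coding genes above or below in both conditions were not computed. DNAJC3 was lowest in the astromal libraries, at -2.16, and had -0.63 in the stromal ones, and DNAJC19 was lowest in the stromal libraries, at -1.79, and had -0.12 in the astromal ones. CCT7, CCT4 and CCT2 were below in the astromal libraries only, at -1.12, -1.05 and -1.14. The CCT median was -0.303 astromal and 0.320 stromal, with 1 and 5 of 8 genes above 0.

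**Figure D4:**
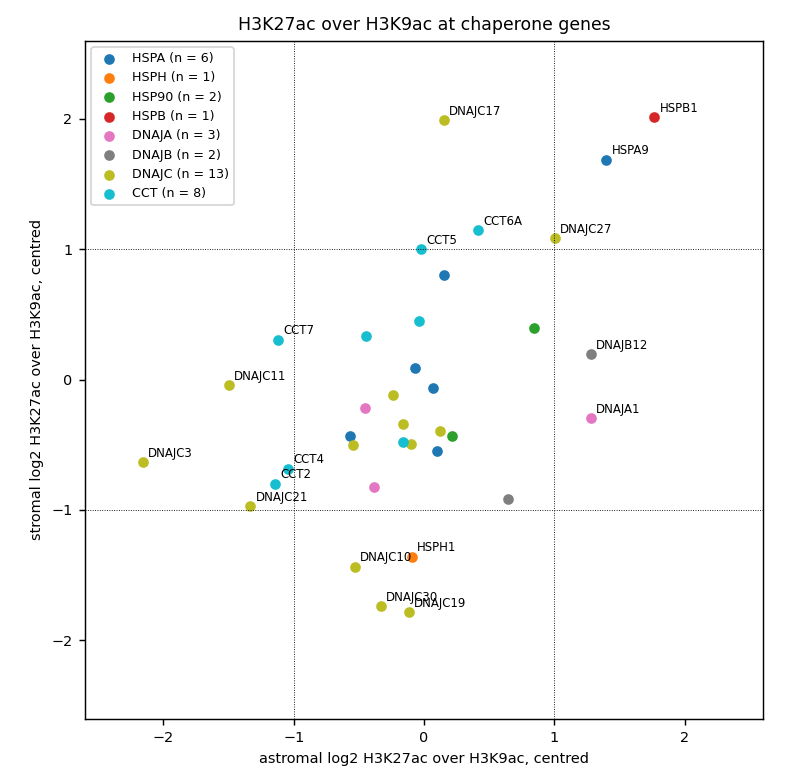
Log2 ratio of H3K27ac over H3K9ac in the astromal (x axis) and stromal (y axis) libraries for the 36 members with both marks in both conditions, each axis relative to its median over all coding genes. Dotted lines mark 2-fold, and members past it in either condition are named. HSPA9 (1.40, 1.69), DNAJC27 (1.00, 1.09) and HSPB1 (1.77, 2.01) are past it on both axes, HSPB1 through distal H3K27ac, without which it had -1.12 and -0.59. HSPA9 sets 3 H3K27ac peaks against 1 H3K9ac peak in each condition. The H3K27ac of DNAJC27 is shared with DNAJC27-AS1, whose own H3K9ac peak is not counted for DNAJC27.

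Member peaks sat at start sites about as often as peaks of other genes. Of the H3K9ac peaks naming a coding member, 54 of 58 astromal (93.1%) and 95 of 116 stromal ones (81.9%) had their centre within 1 kb of the named start, against 87.89% and 79.2% for all coding genes. For H3K27ac it was 74 of 94 astromal (78.72%) and 68 of 89 stromal peaks (76.4%), against 78.24% and 76.59%. Within 1 kb, most H3K9ac peaks of members lay after the start, and their H3K27ac peaks were more evenly split, 39 before and 35 after it in the astromal list and 39 and 29 in the stromal list. Downstream of the start lay 62.96% and 64.21% of the astromal and stromal H3K9ac peaks of members, and 47.3% and 42.65% of their H3K27ac peaks. Over all coding genes those shares were 68.16%, 64.39%, 53.43% and 50.75%. The median H3K9ac peak downstream was at 376 bp in the astromal and 302 bp in the stromal list.

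**Figure D5:**
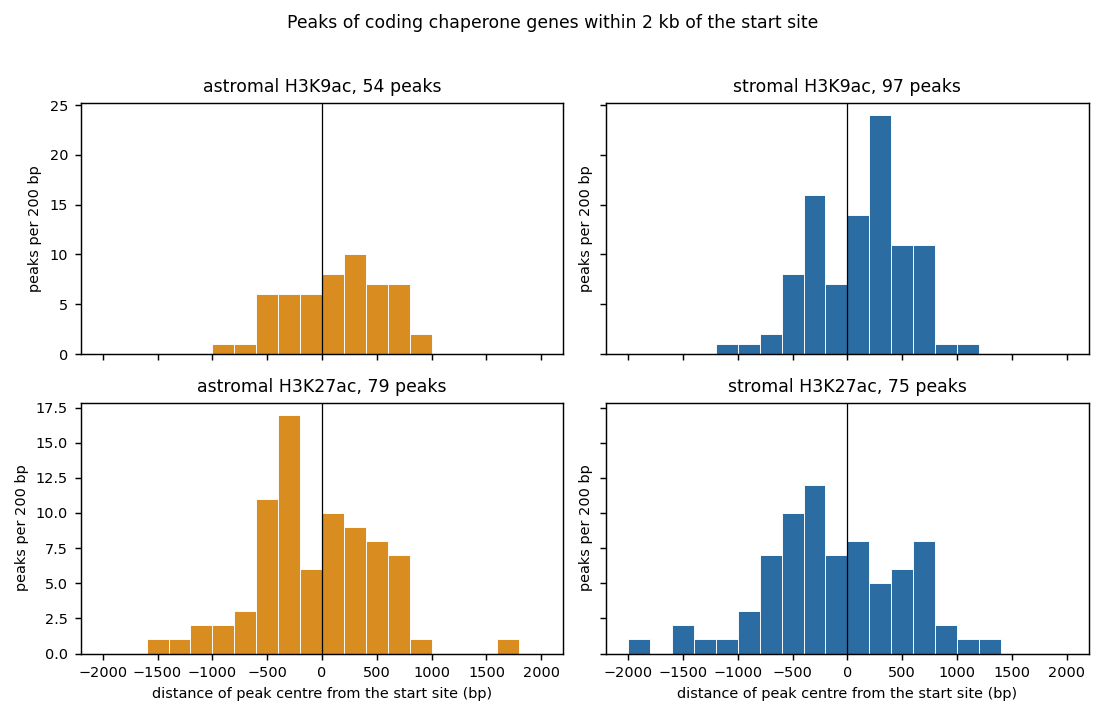
Number of peaks of coding chaperone genes per 200 bp, by distance of the peak centre from the start site, within 2 kb, in the 4 libraries. The H3K9ac peaks pile up after the start (64.21% of the stromal promoter peaks), and the H3K27ac peaks are more evenly split (42.65% of the stromal promoter peaks lie after it).

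How many stromal H3K9ac peaks can share a position with an astromal one is limited by the list sizes, 116 against 58 member peaks. Of the stromal H3K9ac peaks of members, 45 of 116 (38.79%) overlapped an astromal peak by at least 1 bp, against 26.62% of all stromal peaks, and of the astromal ones 47 of 58 (81.03%) overlapped a stromal peak, against 75.77%. For H3K27ac, 65 of 99 astromal (65.66%) and 65 of 93 stromal peaks (69.89%) overlapped, against 60.83% and 58.4%. In both marks the shares set beside the members are over all peaks of a list, not only those of coding genes. Member H3K27ac peaks lie within 2 kb of an H3K9ac peak by definition, which does not hold for all H3K27ac peaks. The part of this choice in the differences was not tested. The stromal H3K9ac peaks of members that overlapped had a median of 42.3 normalised tags and the others 26.4.

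Other genes of protein folding were taken from a list of cochaperones, prefoldins, ER folding enzymes and stress regulators. They were like the chaperone genes in the presence of H3K9ac, and the calls in either set were too few to compare. Of 50 listed genes in the lists, promoter H3K9ac was in both conditions at 30 and in the stromal list only at 19. Those states held 61.5% and 33.8% of the chaperone genes and 44.0% and 46.7% of all coding genes. HSF1, the heat-shock regulator, had 22.9 and 39.6 (-0.12, no call), and H3K27ac of 20.06 and 9.31 (-0.94, no call). Called higher in H3K9ac were 3 of 30, BAG3 and CALR at 1.24 each and LONP1 at 1.10, and lower 2, BAG4 (-1.15) and STIP1 (-1.20), the protein that links Hsp70 to Hsp90. The higher calls of BAG3, CALR and LONP1 rested on 7, 7 and 9 astromal tags in 1 peak each, against 3, 2 and 2 stromal peaks. Their highest H3K9ac peaks held 17.8, 17.8 and 22.9 astromal and 27.7, 50.2 and 47.6 stromal. BAG4 and STIP1 had 1 H3K9ac peak in each list. Of all genes 4.27% were called higher and 3.1% lower in that mark. In H3K27ac 3 of 35 were called higher, BAG6 (1.24), CDC37 (1.21), which brings kinases to Hsp90, and SGTA (1.16), and 1 lower, BAG4 (-1.21). BAG6, CDC37 and SGTA had 1 astromal H3K27ac peak each, against 3, 2 and 2 stromal ones, and BAG4 had 2 against 1. Of all genes 5.5% were called higher and 6.21% lower in H3K27ac, and of 53 chaperone genes 2 higher and 6 lower. The median ratios of this list were 0.090 and -0.049, against -0.059 and -0.093 for the chaperone genes.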

How the data were processed

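H3K9ac and H3K27ac ChIP-seq of MIA PaCa-2 cells gave 4 deposited peak lists, each from 1 library, in build hg19. The 4 inputs were not used on their own. CASAVA 1.8.2, Bowtie and HOMER were used, per the submitters' processing notes. The main signal is the tag count per peak as the authors normalised it to 10000000 tags. H3K27ac peaks were called against input at an FDR of 0.001 with at least 4.00-fold over input and over the local region, each at a Poisson p-value of 1.00e-04, per the file headers. How H3K9ac peaks were called is not given in the sources used here. Deposited counts of tags, fold ratio over input, p-value, the fraction of tags at a peak's centre and a score from HOMER are the authors' values. Fold served as a filter and the score as an alternative level.

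H3K9ac tags were recovered from the even steps of the deposited signal, all within 0.1 tag of a whole number, which also gave the depth. Levels were summed over promoter peaks (H3K9ac, within 1 kb) or over H3K27ac peaks within 2 kb of an H3K9ac peak of the gene, where a peak near several genes counted for each. Log2 ratios were centred on the median of all coding genes, with exact Clopper-Pearson intervals at 95% that cover counting error only. With 1 library per group no difference has a replicate test and no p-value is given. On simulated tags, 95.92% of 4-fold rises and 94.0% of 4-fold falls in H3K9ac were called (4732 genes), and 2.294% of unchanged genes. For H3K27ac (7091 genes) it was 96.0%, 96.0% and 1.306%. Of 2-fold rises and falls, 36.0% and 54.0% were called in H3K9ac and 58.0% and 48.0% in H3K27ac. Calls need a peak in both lists, and a peak missed by the caller is not simulated. Analysis used Python 3.11.15, pandas 2.3.3, numpy 2.4.6, scipy 1.17.1 and matplotlib 3.10.9. Promoter sequences, strands and neighbours come from RefSeq, GRCh38.p14, matched by symbol.

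The members, the lists of related genes and the alternatives were chosen with earlier results of these data known. Any member could be named. Given in full were the highest of each family, all called members, those in 1 list only that were strongest, and those without H3K27ac. A listed tumour cell marker is not reported here.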

Additional observations from a re-analysis of the deposited data

How the results depend on the processing

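No paired analysis was possible because each mark and condition had 1 library, and for the same reason no library could be left out. Of the counts and shares compared, 42 values under an alternative stayed close to those reported and 27 moved, and of the ratios of called members that could be computed 58 kept their call and 17 lost it, with none changing sign. Another 11 had no ratio, 6 with a promoter window of 200 bp, 3 with at least 10 tags and 2 with the nearest gene only. With a promoter window of 200 bp, H3K9ac was in both lists at 6 members, in the stromal list only at 14 and in the astromal list only at 8. There, 0 members were called higher and 0 lower (1.17% and 1.52% of all genes). With peaks of at least 25 normalised tags it was in both lists at 25 and in the astromal list only at 2, and with stromal tags scaled to the astromal depth in the astromal list only at 1. Without centring, 14 members were called higher in H3K9ac and 2 lower (39.3% and 0.19% of all genes). At the highest peak 0 were called higher and 2 lower in H3K9ac (0.169% and 0.676% of all genes), and 0 and 0 in H3K27ac (0.494% and 0.874%). There, H3K27ac over H3K9ac was past 2-fold above the median at 1 member (astromal) and 3 (stromal), where 4.16% and 5.56% of all genes were. It was below at 2 and 3 (3.62% and 4.63%). With H3K27ac only near promoter H3K9ac peaks, chosen after seeing the data, H3K27ac over H3K9ac was above at 2 (astromal, 8.87% of all genes). When both libraries had to hold at least 10 tags, 0 were called higher in H3K9ac and 1 in H3K27ac (3.37% and 5.39% of all genes). H3K27ac was in the stromal list only at 5 and in the astromal list only at 5 when a peak counted for the nearest gene, in the astromal list only at 2 within 1 kb, in the stromal list only at 1 and in the astromal list only at 0 within 5 kb, and in the astromal list only at 5 with peaks at least 8-fold over input. The median astromal H3K9ac peak held 9.0 tags.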
